A study of Mus musculus with 8 samples.

Results

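The genes described here are 8 members of the TNF family and its signalling: the ligands Tnf, Tnfsf9 and Tnfsf10, the receptors Tnfrsf1a, Tnfrsf1b, Cd40 and Fas, and the receptor adaptor Traf1. They were chosen by symbol, and each of the 8 symbols matched a single row among the 55801 genes of the table. All 8 were among the 12189 genes that averaged 1 TPM or more and were tested. TPM is a transcript level corrected for gene length and scaled to the same total in each sample, so levels of different genes can be set side by side within a sample.

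Ligands of the TNF superfamily are mostly made as trimers on the cell surface, and some, Tnf among them, are also released by proteases. Their receptors either carry an intracellular death domain, as Tnfrsf1a and Fas do, or bind TRAF adaptors directly, as Tnfrsf1b and Cd40 do, and many of them activate NF-κB. In macrophages LPS acts through TLR4, and Tnf is among the best known genes of the early response.

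The cells were peritoneal macrophages of male C57BL/6 mice, drawn into the cavity by thioglycollate and harvested by flushing it. All 4 groups first received either the vehicle DMSO or the compound C498 at 15 µM for 0.5 h. NC received vehicle without LPS, LPS received vehicle and then LPS at 100 ng/ml for 4 h, C498 received the compound without LPS, and C498_LPS received the compound and then LPS. Each group had 2 samples, and nothing in the labels says whether they came from separate mice or cultures, so the p values measure the spread between these samples only. With 2 samples against 2 an exact two-sided permutation test cannot go below 0.333, and p values are therefore those of limma, fitted across all tested genes and adjusted by Benjamini-Hochberg. Below, "rose" and "fell" mean an adjusted p of at most 0.05, and "called" means in addition a change of at least 2-fold, the thresholds of the study.

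TPM keeps no record of read numbers, so the depth behind each level is unknown. Between 17528 and 18975 genes were above 0 in a sample. The 6 macrophage markers (Adgre1, Cd68, Csf1r, Itgam, Lyz2 and Mertk) were present in all 8 samples. Their summed level was 19702 to 20248 TPM in NC, 16512 to 17157 TPM in LPS, 15183 to 15346 TPM in C498 and 10583 to 12373 TPM in C498_LPS. Most of this sum was Lyz2, at 15989 and 15984 TPM in NC and 9242 and 7831 TPM in C498_LPS. The 5 fibroblast markers summed to 132 to 183 TPM in the samples without C498 and to 554 to 818 TPM in those with it, and the 4 mesothelial markers to 3.67 to 4.65 TPM and 12.7 to 21.4 TPM. T cell, NK cell, dendritic cell and eosinophil lists stayed at or below 5.36 TPM in each sample, B cell and mast cell lists at or below 15.8 TPM. The neutrophil list summed to 52.0 to 131 TPM, nearly all of it S100a8, while Ngp, Cxcr2 and S100a9 did not exceed 0.86 TPM and Ly6g was listed at 0 in all samples but C498 replicate 2, at 2.62 TPM. In such bulk samples fewer cells of a type and less RNA per cell cannot be told apart, and the part of these shifts in the results below was not tested unless a value is given.

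Promoters of 6 of the 8 genes, all but Tnfsf9 and Cd40, were matched in a RefSeq table on GRCm38.p6. The 250 bases before the annotated start are shown for 4 of them, chosen because Tnf had the largest response to LPS, Traf1 a response that differed with C498, Tnfsf10 the largest loss in C498_LPS vs LPS, and Tnfrsf1b the highest receptor level. Written 5′ to 3′ along the gene, capitals mark matches to the IRF core AANNGAAA or to the GAS element TTCNNNGAA on either strand.
Tnf (chr17:35202008-35202257, minus strand): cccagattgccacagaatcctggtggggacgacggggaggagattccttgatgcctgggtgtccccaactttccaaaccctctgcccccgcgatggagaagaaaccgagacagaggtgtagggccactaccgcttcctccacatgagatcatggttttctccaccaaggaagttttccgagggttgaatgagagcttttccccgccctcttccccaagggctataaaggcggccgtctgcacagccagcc
Traf1 (chr2:34961773-34962022, minus strand): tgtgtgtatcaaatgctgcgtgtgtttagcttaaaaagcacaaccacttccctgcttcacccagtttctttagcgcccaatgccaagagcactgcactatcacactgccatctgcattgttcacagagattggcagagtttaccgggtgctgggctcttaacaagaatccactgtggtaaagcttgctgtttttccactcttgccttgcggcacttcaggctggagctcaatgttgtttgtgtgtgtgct
Tnfsf10 (chr3:27316827-27317076, plus strand): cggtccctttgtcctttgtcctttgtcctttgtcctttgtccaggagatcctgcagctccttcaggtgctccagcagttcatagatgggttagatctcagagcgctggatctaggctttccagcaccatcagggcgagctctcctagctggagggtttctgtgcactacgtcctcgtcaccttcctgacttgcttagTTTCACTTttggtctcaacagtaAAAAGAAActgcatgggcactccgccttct
Tnfrsf1b (chr4:145246871-145247120, minus strand): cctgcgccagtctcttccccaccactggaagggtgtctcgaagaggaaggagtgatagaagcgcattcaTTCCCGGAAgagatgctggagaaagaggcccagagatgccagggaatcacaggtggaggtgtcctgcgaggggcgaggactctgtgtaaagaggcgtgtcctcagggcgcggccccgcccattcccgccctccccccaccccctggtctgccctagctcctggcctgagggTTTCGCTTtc

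Tnfsf10 held 2 matches to the IRF core, starting 53 and 30 bases before the RefSeq start. The GENCODE start of this gene (27317028) lies within the window. By it the first match spans the start and the second lies inside the gene. Tnfrsf1b held 1 match to the IRF core, 10 bases before the start, and 1 GAS match. Fas held 1 of each, Tnfrsf1a held 1 GAS match, and Tnf and Traf1 held none in this window. The window of Tnfrsf1a (chr6:125349473-125349722) lies before its RefSeq start but inside the gene as placed by GENCODE, which starts at 125349362. The consensus of NF-κB was searched on both strands as well and had no match in any of the 6 windows. Of 32536 promoter windows of this length in the table, 21.3% held the IRF core, 7.04% the GAS element and 7.28% the NF-κB consensus. No matches overlapped each other in these 6 windows, and a match is a description of the letters, not a bound site.

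LPS raised 7 of the 8 genes in vehicle-treated cells, and 6 of them were called. Of all tested genes 5.55% were called higher in LPS vs NC, and 9.84% rose. The median log2 change of the 8 genes was 2.73, against -0.17 over all tested genes. With C498 present LPS raised and called the same 6 genes, Tnf, Tnfsf9, Tnfsf10, Tnfrsf1b, Cd40 and Traf1, against 2.52% of all genes called higher in C498_LPS vs C498, and the median was 1.61 (-0.18 over all genes). Centring every sample on its median gene moved the all-gene medians of these 2 comparisons to -0.00054 and 0.038, and that of C498 vs NC from 0.014 to -0.11.

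**Figure D1:**
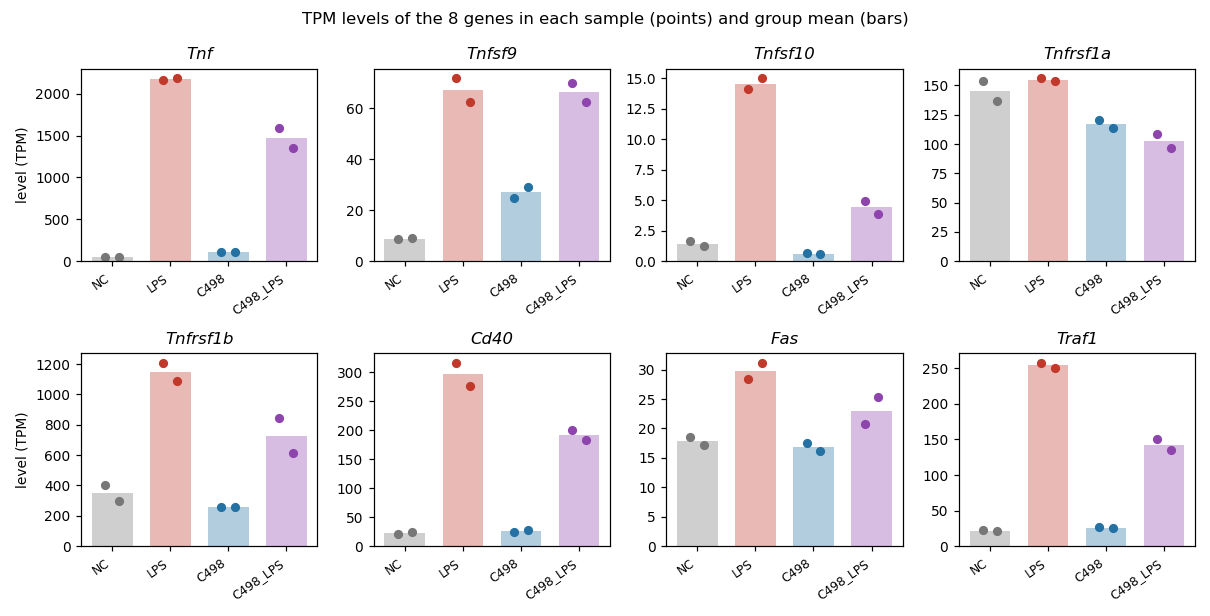
Levels in TPM (vertical axes, each starting at 0 and with its own range) of the 8 genes in NC, LPS, C498 and C498_LPS. Points are single samples and bars group means of 2. For Tnf the LPS samples lie at 2157 and 2190.0 TPM and the C498_LPS samples between 1347 and 1588 TPM, while for Tnfsf9 these 2 groups overlap.

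Tnf (ENSMUSG00000024401, chr17:35199381-35202007, minus strand, GRCm38), the founding cytokine of the family, was at 50.9 and 49.85 TPM in NC and at 2157 and 2190.0 TPM in LPS. It was at 116 and 107 TPM in C498 and at 1588 and 1347 TPM in C498_LPS. No groups overlapped, and the order from low to high was NC, C498, C498_LPS and LPS. Mean levels rose 43.2-fold with LPS in vehicle-treated cells (log2 5.40, SE 0.099, adjusted p = 4.59e-07) and 13.2-fold in cells given C498 (log2 3.71, adjusted p = 5.74e-06). Between the 2 LPS-treated groups the level with C498 was 67.5% of that without, and Tnf fell by 0.57 on the log2 scale (SE 0.099, adjusted p = 0.00961). This was under 2-fold, it turned to 0.019 on a scale set by macrophage markers (described further on), and adjusted p was 0.0697 without LPS replicate 1, 0.0746 without LPS replicate 2 and 0.0546 without C498_LPS replicate 2. In cells without LPS, Tnf was 2.21-fold higher with C498 and called (log2 1.13, adjusted p = 0.000787). On the TPM scale Tnf was thus higher with C498 in cells without LPS and lower with it in cells given LPS.

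Tnfsf9 (ENSMUSG00000035678, chr17:57105325-57107757, plus strand), the ligand of the costimulatory receptor Tnfrsf9, was at 8.66 and 9.14 TPM in NC and at 71.95 and 62.4 TPM in LPS. It was at 24.9 and 29.3 TPM in C498 and at 69.9 and 62.6 TPM in C498_LPS. The 2 LPS-treated groups overlapped, and C498 alone lay between them and NC. LPS raised it 7.55-fold without C498 (log2 2.78, SE 0.13, adjusted p = 2.15e-05) and 2.45-fold with it (log2 1.26, adjusted p = 0.00152). C498 alone raised it 3.04-fold (log2 1.50, adjusted p = 0.000814). The C498_LPS mean was 98.6% of the LPS mean (log2 -0.018, SE 0.13, adjusted p = 0.952, turning to 0.086 after quantile normalization and to 0.57, adjusted p = 0.0376, on the macrophage marker scale). A gene on the other strand, Gm11110, overlaps Tnfsf9 and had a mean level of 3.30 TPM. Whether strand was used in counting is not given in the sources used here.

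Tnfsf10 (TRAIL; ENSMUSG00000039304, chr3:27317028-27342427, plus strand), a ligand that can signal cell death and is known as an interferon-stimulated gene, was the lowest of the 8 in each sample. It was at 1.63 and 1.27 TPM in NC, 14.1 and 15.1 TPM in LPS, 0.64 and 0.62 TPM in C498 and 4.97 and 3.87 TPM in C498_LPS. No groups overlapped. LPS raised it 10.1-fold in means of TPM without C498 (log2 2.67, SE 0.20, adjusted p = 0.000155) and 7.02-fold with it (log2 1.73, adjusted p = 0.00235), the log2 changes being reduced by the 1 TPM added to each level. Of the 8 genes it was the single one called lower in C498_LPS vs LPS (log2 -1.53, SE 0.20, adjusted p = 0.00345), at 30.3% of the LPS level, and 2.18% of all genes were called lower. The adjusted p stayed at or below 0.0407 under each of 17 alternatives, but on the macrophage marker scale the change was -0.94, under 2-fold, and the call was lost. In cells without LPS the difference was -0.58 (adjusted p = 0.0957). It passed the threshold with a pseudocount of 0.1 (log2 -1.08, adjusted p = 0.0399), centred on the median gene (adjusted p = 0.0343) and after quantile normalization (adjusted p = 0.0222).

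Tnf took a changing share of the ligand transcripts. Over the 18 ligand genes of the family, Tnf made up 17.4% to 20.8% of the summed TPM in NC, 36.2% to 42.2% in C498, 87.7% to 89.3% in C498_LPS and 90.3% to 90.4% in LPS. The sum of the other ligands lay between 158 and 237 TPM in all 8 samples. In it NC and LPS overlapped, as did C498 and C498_LPS, and the latter pair lay below the former. Its largest part in NC was Tnfsf12, at 145 and 178 TPM, against 75.0 and 88.7 TPM in LPS. With LPS Tnfsf12 fell by 0.97 (adjusted p = 0.00348), and by 0.98 with C498 present (adjusted p = 0.00703), while Tnfsf9 and Tnfsf15 rose in both. Neither fall passed on the macrophage marker scale described further on (adjusted p = 0.0677 and 0.235). Tnfsf12 also overlaps the readthrough gene Tnfsfm13 (37.5 TPM).

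Tnfrsf1a (ENSMUSG00000030341, chr6:125349362-125362484, plus strand), the TNF receptor with a death domain, was at 153 and 137 TPM in NC, 157 and 153 TPM in LPS, 121 and 114 TPM in C498 and 108 and 96.5 TPM in C498_LPS. NC and LPS overlapped, and both lay above the groups given C498. LPS did not pass the test for it, without C498 (log2 0.096, SE 0.10, adjusted p = 0.521) or with it (log2 -0.19, adjusted p = 0.238, turning to 0.021 when samples were centred on the median gene and to 0.31 on the macrophage markers). It fell by 0.59 between the LPS-treated groups (SE 0.10, adjusted p = 0.00907), to 66.1% of the LPS mean. Leaving out LPS replicate 1, LPS replicate 2 or C498_LPS replicate 2 gave adjusted p of 0.0705, 0.0653 and 0.0654, and on the macrophage marker scale the change was -0.0046 (adjusted p = 0.977). Without LPS the difference was -0.30 (adjusted p = 0.0851), with adjusted p = 0.0332 after centring on the median gene and 0.0474 after quantile normalization.

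Tnfrsf1b (ENSMUSG00000028599, chr4:145213463-145246870, minus strand), the TNF receptor without a death domain, had the highest level of the 8 in NC and C498 and ranked after Tnf in LPS and C498_LPS. It was at 404 and 297 TPM in NC, 1209.8 and 1091 TPM in LPS, 256 and 257 TPM in C498 and 842 and 617 TPM in C498_LPS. No groups overlapped, although the 2 samples of NC and of C498_LPS lay far apart. LPS raised it 3.28-fold without C498 (log2 1.73, SE 0.18, adjusted p = 0.000743) and 2.84-fold with it (log2 1.49, adjusted p = 0.00303). Between the LPS-treated groups it fell by 0.67 (SE 0.18, adjusted p = 0.0471). That p lies just under the threshold, and the gene passed in 8 of 17 alternatives, with adjusted p of 0.25 without C498_LPS replicate 2, 0.224 without LPS replicate 1 and 0.622 on the macrophage marker scale, where the change was -0.082. Without LPS the difference was -0.43 (adjusted p = 0.156), with adjusted p = 0.0414 after centring on the median gene.

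The ratio of Tnfrsf1b to Tnfrsf1a was 2.17 to 2.64 in NC, 7.11 to 7.73 in LPS, 2.13 to 2.26 in C498 and 6.39 to 7.76 in C498_LPS. It was thus higher in all 4 LPS-treated samples than in the other 4, and within each LPS state the groups with and without C498 overlapped. Of the summed level of 28 receptor genes, Tnfrsf1b made up 40.4% to 44.6% in NC, 61.7% to 61.9% in LPS, 33.2% to 33.5% in C498 and 50.3% to 58.2% in C498_LPS.

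Cd40 (ENSMUSG00000017652, chr2:165055627-165072948, plus strand), the receptor through which T cells help antigen-presenting cells, was at 20.4 and 23.7 TPM in NC, 316 and 276 TPM in LPS, 25.1 and 28.7 TPM in C498 and 199.9 and 182 TPM in C498_LPS. No groups overlapped. LPS raised it 13.4-fold without C498 (log2 3.69, SE 0.13, adjusted p = 4.87e-06) and 7.11-fold with it (log2 2.79, adjusted p = 4.82e-05). It fell by 0.63 in C498_LPS vs LPS (SE 0.13, adjusted p = 0.0167). The adjusted p was 0.0854 after quantile normalization and between 0.0513 and 0.122 when any 1 of the 4 samples compared was left out, and on the macrophage marker scale the change was -0.037 (adjusted p = 0.881). C498 alone gave 0.28 (adjusted p = 0.185). Its ligand Cd40lg did not exceed 0.66 TPM in any sample.

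Fas (ENSMUSG00000024778, chr19:34290666-34327772, plus strand), a death receptor, varied least with LPS after Tnfrsf1a. It was at 18.6 and 17.2 TPM in NC, 28.3 and 31.2 TPM in LPS, 17.5 and 16.2 TPM in C498 and 20.7 and 25.3 TPM in C498_LPS. NC and C498 overlapped, and both LPS-treated groups lay above them. It rose in LPS vs NC by 0.70 (SE 0.14, adjusted p = 0.0096), under 2-fold, and without LPS replicate 2 the adjusted p was 0.0727. In C498_LPS vs C498 the log2 change was 0.42 (adjusted p = 0.0835), with adjusted p = 0.0401 after centring on the median gene and 0.0335 after quantile normalization, and it was 0.92 (adjusted p = 0.0263) on the macrophage marker scale. C498_LPS vs LPS gave -0.36 (adjusted p = 0.128) and C498 alone -0.083 (adjusted p = 0.718), which turned to 0.23 and 0.16 on the macrophage marker scale. Its ligand Fasl did not exceed 0.45 TPM in any sample.

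Traf1 (ENSMUSG00000026875, chr2:34941750-34961772, minus strand), an adaptor that joins TNF receptor complexes and is a known NF-κB target, was at 22.2 and 21.15 TPM in NC, 258 and 251 TPM in LPS, 26.45 and 25.35 TPM in C498 and 150.3 and 135 TPM in C498_LPS. No groups overlapped, and the replicates lay close together. LPS raised it 11.8-fold without C498 (log2 3.50, SE 0.096, adjusted p = 1.7e-06) and 5.51-fold with it (log2 2.42, adjusted p = 2.25e-05). It fell by 0.83 in C498_LPS vs LPS (SE 0.096, adjusted p = 0.00215), to 56.1% of the LPS mean. Among the 6 genes that fell in that comparison it and Tnfsf10 passed in each leave-one-out fit, while on the macrophage marker scale Traf1 gave -0.24 (adjusted p = 0.193). C498 alone gave 0.25 (adjusted p = 0.128).

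**Figure D2:**
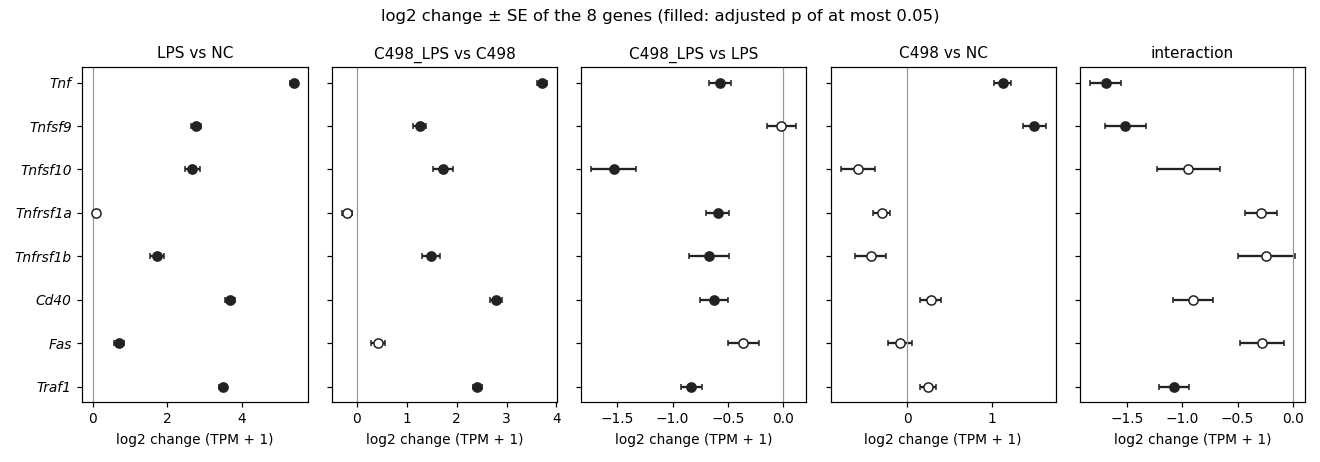
log2 change of log2(TPM + 1) with its SE (horizontal axes, different in each panel) of the 8 genes in 4 comparisons and in the interaction, which is the LPS change with C498 minus the one without. Filled points have an adjusted p of at most 0.05: 7 in LPS vs NC, 6 in C498_LPS vs C498, 6 in C498_LPS vs LPS, 2 in C498 vs NC and 3 in the interaction.

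Between the LPS-treated groups all 8 genes had a lower mean TPM with C498, although Tnf, Tnfsf9 and Fas turned positive on the marker scale given further on. Of the 8, 6 fell and 1, Tnfsf10, was called. Over all tested genes 7.7% fell. The median log2 change was -0.61 for the 8 genes and 0.0065 for all tested genes. In C498 vs NC 2 genes, Tnf and Tnfsf9, were called higher (5.64% of all genes) and none fell by limma's adjusted p. The medians were 0.082 and 0.014. In that comparison Tnfsf10, Tnfrsf1a and Tnfrsf1b were lower and Traf1 was higher in both C498 samples than in both NC samples, at unadjusted p of 0.0226, 0.0187, 0.05 and 0.0362, where 32% of all genes had an unadjusted p under 0.05. LPS vs NC and C498_LPS vs LPS share the LPS samples, and C498 vs NC shares samples with both LPS comparisons.

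Whether C498 changed the size of the LPS response was tested by the interaction of C498 and LPS, in which LPS vs NC and C498_LPS vs C498 share no samples. The log2 LPS change was smaller with C498 for all 8 genes (on the macrophage marker scale for all but Tnfrsf1a, Tnfrsf1b and Fas), with a median difference of -0.92 (-0.027 over all tested genes). The difference passed for Tnf (-1.70, SE 0.14, adjusted p = 0.00931), Tnfsf9 (-1.52, SE 0.19, adjusted p = 0.0295) and Traf1 (-1.08, SE 0.14, adjusted p = 0.031). Of all tested genes 0.394% were called lower in this way and 0.0738% higher. By construction each difference is the change in C498_LPS vs LPS minus that in C498 vs NC. For Tnf these were -0.57 and 1.13, and for Tnfsf9 -0.018 and 1.50. The levels in cells without LPS thus made up the larger part. For Traf1 these changes were -0.83 and 0.25, so that the level in cells given LPS made up the larger part. On the macrophage marker scale, however, they were -0.24 and 0.49.

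These 3 calls were close to the threshold in part of the fits. Tnf was lost without a variance trend (adjusted p = 0.0566) and without LPS replicate 1 (0.0773) or 2 (0.0559), Tnfsf9 in 13 of 16 alternatives and Traf1 in 12 of 16. Cd40 gave -0.90 (adjusted p = 0.112) and Tnfsf10 -0.95 (adjusted p = 0.299). Tnfrsf1a, Tnfrsf1b and Fas gave -0.29, -0.24 and -0.28 (adjusted p = 0.519, 0.777 and 0.665).

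The 6 macrophage markers were also lower in C498_LPS than in LPS, with a median log2 change of -0.63 and 3 of 6 past the test (Adgre1 -0.92, Csf1r -0.91 and Lyz2 -0.64), while Cd68 gave -0.11 (adjusted p = 0.47). An added fit therefore centred each sample on its mean log2 level over these 6 genes. That mean was 9.37 and 8.99 in NC, 9.07 and 8.97 in LPS, 8.97 and 8.89 in C498 and 8.59 and 8.27 in C498_LPS. The markers also changed with LPS. Csf1r fell in LPS vs NC (-0.67, adjusted p = 0.029) and in C498_LPS vs C498 (-1.14, adjusted p = 0.00795). Lyz2 fell in the latter too (-0.43, adjusted p = 0.0304), and none of the 6 rose in either. On this scale the median of all tested genes moved to 0.60 in C498_LPS vs LPS, 0.26 in C498 vs NC, 0.32 in C498_LPS vs C498 and -0.013 in LPS vs NC. On it Tnf gave 0.019 (adjusted p = 0.923), Tnfrsf1a -0.0046 (0.977), Tnfrsf1b -0.082 (0.622) and Cd40 -0.037 (0.881). Traf1 gave -0.24 (adjusted p = 0.193) and Fas 0.23 (adjusted p = 0.386). Tnfsf10 still fell, by 0.94 (adjusted p = 0.00774), and Tnfsf9 rose by 0.57 (adjusted p = 0.0376). The value of Tnfsf9 lay close to the all-gene median of 0.60, and 59.2% of all genes had an unadjusted p under 0.05 in this fit. The 5 losses other than that of Tnfsf10 thus no longer passed, and whether they share a source with the lower marker levels was not tested.

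**Figure D3:**
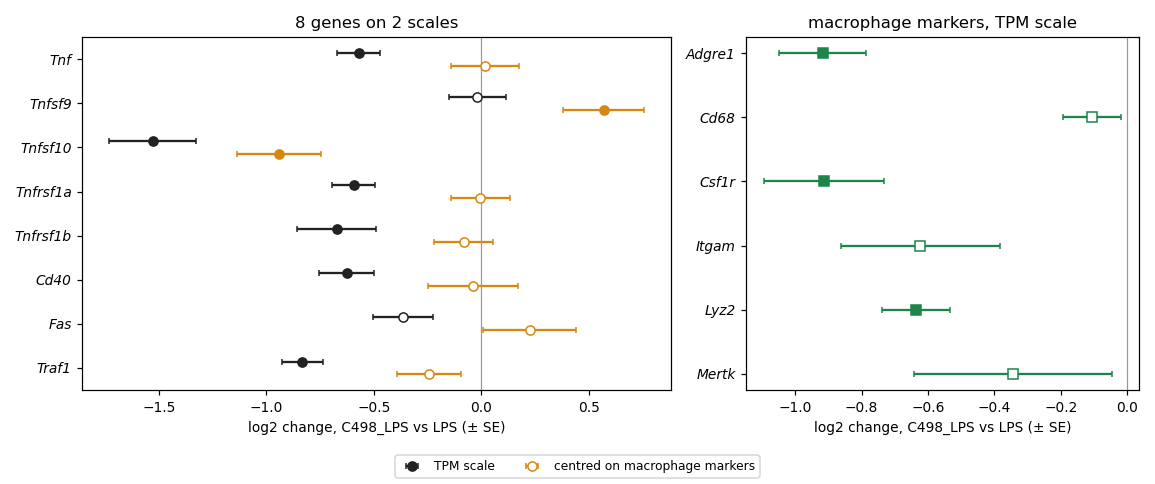
Left, log2 change of the 8 genes in C498_LPS vs LPS with SE on the TPM scale (black) and with each sample centred on 6 macrophage markers (orange). Right, the 6 markers themselves on the TPM scale, with Adgre1 at -0.92 and Cd68 at -0.11. Filled symbols have an adjusted p of at most 0.05, which on the marker scale holds for Tnfsf10 (-0.94) and Tnfsf9 (0.57).

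On the marker scale the responses to LPS remained called for the same 6 genes in both comparisons, for example Tnf at 5.56 without C498 and 4.21 with it. The share of all genes called was not computed on that scale. In LPS vs NC and C498_LPS vs C498, 33.6% and 33.4% of all genes had an unadjusted p under 0.05, with medians of -0.013 and 0.32. Tnf and Tnfsf9 also remained called higher in C498 vs NC, at 1.37 (adjusted p = 0.00179) and 1.75 (adjusted p = 0.00141), and Traf1 rose there by 0.49 (adjusted p = 0.0495). The all-gene median of that comparison was 0.26 on this scale, and 35.7% of all genes had an unadjusted p under 0.05. None of the 8 genes passed the interaction test on that scale by limma, where Tnf gave -1.35 (adjusted p = 0.109) and 3 of the 8 had an unadjusted p under 0.05 (14.5% of all genes on that scale).

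Of the 15 other ligand genes of the superfamily, 8 were expressed enough to be tested. In LPS vs NC 1 was called higher and 3 lower (5.55% and 6.68% of all genes). Tnfsf15, a ligand for T cell costimulation, was at 0.45 and 0.34 TPM in NC, 45.8 and 39.8 TPM in LPS, 0.39 and 0.52 TPM in C498 and 36.7 and 25.8 TPM in C498_LPS (log2 4.97, adjusted p = 1.18e-05 without C498, and 4.45, adjusted p = 5.06e-05 with it). Tnfsf14 (log2 -1.83, adjusted p = 0.00543), Tnfsf13b (-1.24, adjusted p = 0.013) and Tnfsf13 (-1.09, adjusted p = 0.0169), the last 2 being B cell survival factors, were called lower. Tnfsf13 shares its bases with the readthrough gene Tnfsfm13 (37.5 TPM), so its level is uncertain, and its pass was lost in 7 of 17 alternatives (adjusted p up to 0.115). That of Tnfsf13b was lost in 2 of 16 (up to 0.0825). Tnfsf13b was also called lower in C498 vs NC (-1.12, adjusted p = 0.032; 1.36% of all genes), a call lost in 9 of 16 alternatives. Tnfsf11 (RANKL) was called higher in C498_LPS vs LPS (1.31, adjusted p = 0.0363) and lost this in 7 of 16.

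Of the 24 other receptor genes 15 were tested, and here C498 raised several. C498 vs NC gave 4 called higher (5.64% of all genes), 0 called lower and 1 that fell by under 2-fold, and C498_LPS vs LPS gave 5 called higher and 2 lower (5.39% and 2.18% of all genes). Tnfrsf12a (Fn14), the receptor for Tnfsf12, was at 19.8 and 21.6 TPM in NC, 19.1 and 15.9 TPM in LPS, 128 and 129 TPM in C498 and 106 and 144.5 TPM in C498_LPS. The groups given C498 did not overlap those without it, with log2 changes of 2.58 without LPS (adjusted p = 0.000227) and 2.76 with it (adjusted p = 0.000327). Tnfrsf12a is also expressed by fibroblasts, whose markers were higher in the same samples, and the part of these cells in the change was not tested.

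Tnfrsf10b, a mouse receptor for Tnfsf10, was between 0.58 and 0.93 TPM without C498 and between 5.49 and 8.43 TPM with it (log2 2.03, adjusted p = 0.00228 without LPS, and 2.13, adjusted p = 0.00181 with it). The ligand Tnfsf10 fell and this receptor rose in C498_LPS vs LPS. Eda2r rose by 1.80 (adjusted p = 0.00532) and 1.88 (adjusted p = 0.00355), and in C498 vs NC Tnfrsf9, the receptor of Tnfsf9, rose by 1.04 (adjusted p = 0.0402), a call lost in 10 of 16 alternatives. Tnfrsf14, a receptor of Tnfsf14, was called lower in C498_LPS vs LPS (-1.26, adjusted p = 0.0129, lost in 3 of 17 alternatives), as was Tnfrsf8 (-1.19, adjusted p = 0.0077), while the fifth gene called higher there besides Relt was Tnfrsf23 (1.20, adjusted p = 0.0144). On the macrophage marker scale Tnfrsf14 gave -0.67 (adjusted p = 0.0103) and Tnfrsf8 -0.60 (adjusted p = 0.043), both under 2-fold. Tnfrsf9, at 1.15 to 3.72 TPM, overlaps Camta1 on the other strand, which had a mean of 4.615 TPM.

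In vehicle-treated cells with LPS 1 of these receptors was called higher and 3 lower (5.55% and 6.68% of all genes). Tnfrsf8 (CD30) rose by 2.94 (adjusted p = 8.58e-05), and by 2.45 with C498 (adjusted p = 0.00043). Relt (-2.28, adjusted p = 0.000223), Tnfrsf21 (-1.65, adjusted p = 0.00147) and Tnfrsf26 (-1.33, adjusted p = 0.00169) fell, and Tnfrsf21 and Tnfrsf26 fell with C498 as well (-1.48 and -1.32, adjusted p = 0.00473 and 0.0038, lost in 2 and 1 of 17 alternatives), where 3.13% of all genes were called lower. Tnfrsf26 has close paralogs, Tnfrsf22 and Tnfrsf23, and its reads may be split among them. Relt was at 13.8 and 15.2 TPM in NC, 2.42 and 1.95 TPM in LPS, 9.13 and 9.97 TPM in C498 and 5.64 and 7.57 TPM in C498_LPS. It was higher in C498_LPS than in LPS (1.25, adjusted p = 0.00584, lost in 2 of 17 alternatives), and its interaction of 1.80 (adjusted p = 0.0489) was lost in 14 of 16 alternatives.

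**Figure D4:**
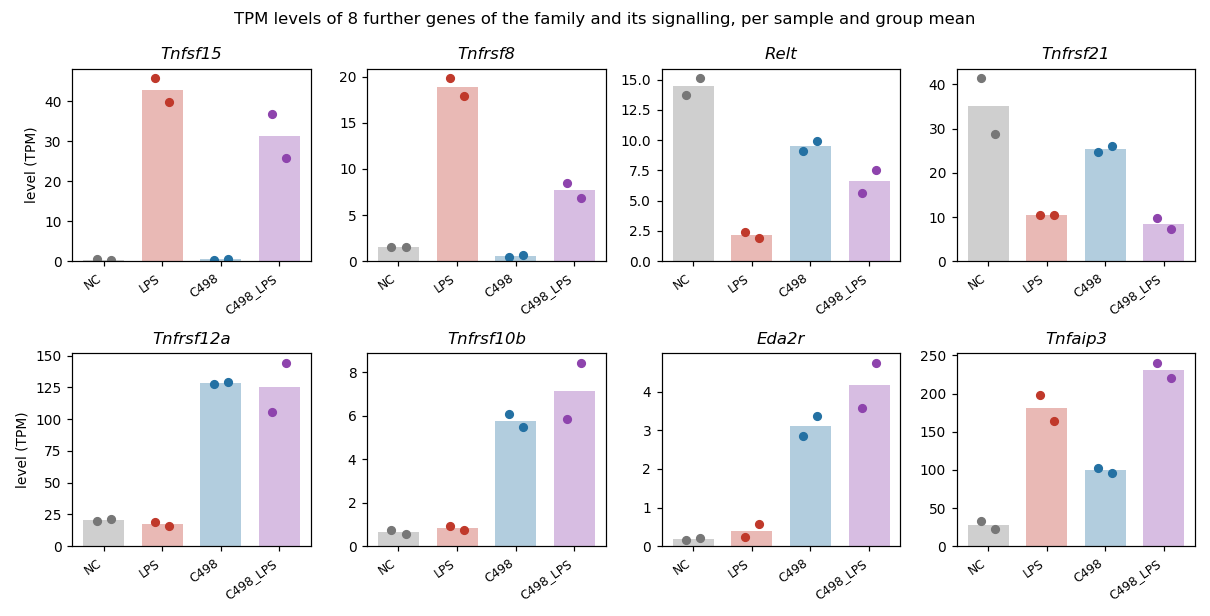
Levels in TPM (vertical axes, each starting at 0 and with its own range) of 8 further genes in the 4 groups, with single samples as points and group means of 2 as bars. Tnfsf15 and Tnfrsf8 are high in the LPS-treated groups, Relt and Tnfrsf21 are highest in NC, and Tnfrsf12a, Tnfrsf10b and Eda2r are high in both groups given C498.

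All 28 genes of a list of TNF receptor signalling, which also holds Adam17, the protease that releases Tnf, and its regulator Rhbdf2, were tested. In LPS vs NC 12 rose (9.84% of all genes), 8 of them called (5.55%), and 3 fell, with a median log2 change of 0.40 (-0.17 over all genes). The 5 with the largest changes were Tnfaip3 (A20), a ubiquitin-editing inhibitor of NF-κB, at 2.69 (adjusted p = 9.73e-05), the inhibitor Nfkbia at 2.07 (adjusted p = 4.01e-05), the A20-binding protein Tnip1 at 2.00 (adjusted p = 3.43e-05), the caspase-8 regulator Cflar at 1.88 (adjusted p = 0.00148) and the adaptor Traf5 at 1.73 (adjusted p = 0.000174). With C498 the same 5 were called (2.52% of all genes were called higher), at 1.20, 1.45, 1.44, 1.05 and 1.08 (adjusted p = 0.00662, 0.000437, 0.000353, 0.0257 and 0.00318), and the median was 0.13 (-0.18 over all genes). There Cflar lost its pass in 7 of 17 alternatives (adjusted p up to 0.164) and Tnfaip3 in 3 of 17 (up to 0.0696). Tnfaip3 was at 33.0 and 22.5 TPM in NC, 199 and 164 TPM in LPS, 103 and 96.4 TPM in C498 and 241 and 221 TPM in C498_LPS. Like Tnf and Tnfsf9 it was called higher in C498 vs NC (1.83, adjusted p = 0.00124), and C498_LPS vs LPS gave 0.35 (adjusted p = 0.244). On the macrophage marker scale the latter was 0.94 (adjusted p = 0.00271), against an all-gene median of 0.60.

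Of the 28, 6 fell (7.7% of all genes) and 1 rose in C498_LPS vs LPS, and Ikbkg (NEMO), a subunit of the IκB kinase, was the single gene called (-1.14, adjusted p = 0.0109, up to 0.0914 and lost in 2 of 17 alternatives, with 2.18% of all genes called lower). On the macrophage marker scale it was -0.55 (adjusted p = 0.0149), under 2-fold, and no other of the 28 fell. More of the 28 rose than fell there, with Map3k14 (1.53, adjusted p = 0.00176) and Ripk1 (1.09, adjusted p = 0.00177) the highest. The all-gene median was 0.60 on that scale, and 59.2% of all genes had an unadjusted p under 0.05. Ikbkg overlaps G6pdx on the other strand, which had a mean of 131 TPM. In the interaction none of the 28 passed by limma, 11 had an unadjusted p under 0.05 (11.1% of all genes), and 25 of 28 had a negative value (52.9% of all genes), with a median of -0.36 (-0.027 over all genes). The 6 macrophage markers were negative in the interaction as well, with a median of -0.34. On the macrophage marker scale as many of the 28 were positive as negative, from -1.14 for Tnfaip3 (adjusted p = 0.117) to 1.00 for Map3k14 (adjusted p = 0.254). None passed there, and the all-gene median was 0.32. The uniform direction was thus not seen on that scale, and its source was not tested.

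For each of the 8 genes the 2 tested genes with the most similar pattern were sought by Pearson's r of log2(TPM + 1) over the 8 samples. These points are 4 groups of 2, so that r mostly reflects group means, and all r lay between 0.983 and 0.999. Tnf was closest to Nfkb2 and Il1b, Tnfsf9 to the chemokine Ccl3 and the growth factor Csf3, and Traf1 to Mx2 and Tnip1. Tnfsf10 was closest to Tarm1 and Gm12250, Cd40 to Gm17017 and Calhm6, and Tnfrsf1b to Calcrl and Apbb1ip. Tnfrsf1a, which LPS did not move past the test, was closest to the macrophage marker Adgre1 (r = 0.994) and to Krcc1, and Fas to Gm17435 and Gm12764.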

How the data were processed

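RNA was measured in 8 samples of mouse peritoneal macrophages, 4 groups of 2. Illumina NovaSeq reads were filtered with fastp, aligned with HISAT2, assembled with StringTie and quantified with RSEM, and the authors deposited TPM per gene and sample. Versions and genome build are not given in the sources used here. The authors' group mean columns were not used. Their DESeq2 test needs counts and was not repeated. Genes averaging 1 TPM or more were tested on log2(TPM + 1), which understates changes of low genes, with limma 3.58.1 in R 4.3.3, with 1 mean per group over all samples, a variance trend and Benjamini-Hochberg adjustment within each comparison. Comparisons were LPS vs NC, C498_LPS vs C498, C498_LPS vs LPS, C498 vs NC and the interaction. The 8 genes and the lists were chosen with earlier results of these data known. Named besides them are up to 5 called genes with the largest change per list and comparison, and the 2 nearest patterns of each gene. Cd40lg, Fasl, Tnfrsf23 and single marker genes were named after their values were seen. Gene coordinates follow GENCODE M21 (GRCm38), and promoter sequences those of RefSeq on GRCm38.p6. The fit was tested on simulated data. Alternatives were a pseudocount of 0.1, no filter, a minimum of 5 TPM, centring on the median gene, quantile normalization, only the groups compared, no variance trend, no fold threshold, a replicate block and leaving out each sample. Centring on macrophage markers was added after the data were seen.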

Additional observations from a re-analysis of the deposited data

Results flagged for a closer look

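For 3 genes the response to LPS differed between vehicle-treated and C498-treated cells by the interaction test of limma. The log2 LPS change with C498 minus that without was -1.70 for Tnf (adjusted p = 0.00931), -1.52 for Tnfsf9 (adjusted p = 0.0295) and -1.08 for Traf1 (adjusted p = 0.031). LPS raised each of the 3 genes in both settings. The adjusted p rose above 0.05 in 4, 13 and 12 of 16 alternatives for Tnf, Tnfsf9 and Traf1, among them the macrophage marker scale and the fits without LPS replicate 1 or 2. No group had 4 samples or more, so single samples were not examined for extreme values.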

How the results depend on the processing

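Of 672 refits of the log2 changes of the 8 genes, 596 kept their direction and their side of the threshold, 53 lost and 11 gained a pass, and 12 reversed. The number called stayed at 6 in C498_LPS vs C498 under each alternative run, went from 6 to 7 in LPS vs NC without a fold threshold, and from 2 to 3 (1 of them lower) in C498 vs NC with a pseudocount of 0.1. In C498_LPS vs LPS the number called was 6 without a fold threshold and 0 when centred on the macrophage markers. In the interaction, 3 in the fit reported, it was 1 without a filter, 1 centred on the median gene, 1 after quantile normalization, 0 without a variance trend, 0 centred on the macrophage markers and 0 to 2 when 1 sample was left out. It was 0 without LPS replicate 1 or 2, 1 without NC replicate 2 or any 1 of the samples given C498, and 2 without NC replicate 1.

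Reversed in C498_LPS vs LPS were Tnfsf9 (0.086 after quantile normalization, 0.57 on the macrophage markers, -0.12 to 0.083 when 1 sample was left out), Tnf (0.019 on the macrophage markers) and Fas (0.23 on the same scale). Also reversed were Tnfrsf1a in C498_LPS vs C498 (0.021 centred on the median gene, 0.31 on the macrophage markers), Fas in C498 vs NC (0.16 on the macrophage markers), and, on the same scale, the interactions of Tnfrsf1a (0.054), Tnfrsf1b (0.10) and Fas (0.063). Apart from scaling itself the cause was not tested.

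The numbers 1 and 2 do not pair the samples by any label, and deviations of equally numbered samples correlated at 0.04 to 0.168 over 6 pairs of groups. With the replicate block, 3 of the 8 genes were called in the interaction, 1 in C498_LPS vs LPS, 6 in both LPS comparisons and 2 in C498 vs NC. Of the 8 genes, Tnfrsf1a in C498 vs NC was the one that changed its side of the threshold with the block (-0.30, adjusted p = 0.0408). Over all genes calls went from 1491, 688, 923, 853 and 57 to 1537, 736, 950, 927 and 84 in LPS vs NC, C498_LPS vs C498, C498_LPS vs LPS, C498 vs NC and the interaction. Centring on the median gene moved the share of higher genes among all calls from 45.4% to 61.7% in LPS vs NC, from 44.6% to 68.9% in C498_LPS vs C498 and from 80.5% to 67.8% in C498 vs NC. The fit of only the groups compared gives no interaction. Depth is unknown, so counting error is seen only through the 2 replicates.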
